A study of Rattus norvegicus with 6 samples.

Results

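Replication licensing genes encode the proteins that load the replicative DNA helicase onto origins before S phase. The 10 genes described here were chosen by name, with earlier results of these data known. They are the 6 subunits of the MCM helicase (Mcm2, Mcm3, Mcm4, Mcm5, Mcm6 and Mcm7), the loading factors Orc1, Cdc6 and Cdt1, and Gins2, and they are 10 of the 28282 gene symbols in the count tables. All 10 passed the filter on low counts over all nuclei.

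Licensing takes place in late mitosis and G1 phase. The origin recognition complex, of which Orc1 is the largest subunit, binds an origin and recruits Cdc6, and Cdt1 then brings the MCM ring, which is loaded onto DNA in an inactive form. At the start of S phase the ring joins Cdc45 and the GINS complex, which contains Gins2, and begins to unwind DNA, while Cdt1 is degraded or held by geminin so that no origin is licensed again in the same cycle. In the gut these genes are known as markers of the crypt, where stem cells and transit-amplifying (TA) cells divide, and they are switched off as cells leave the cycle and move onto the villus.

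Nuclei of the ileum were taken from 6 wild type male Sprague–Dawley rats, 6 weeks old, at 24 h after surgery. In the 3 SAP rats, severe acute pancreatitis was induced under pentobarbital anesthesia by infusing 3% sodium taurocholate, a bile salt, backwards into the pancreatic duct, with 0.1 mL given for each 100 g of weight. The 3 CON rats had a sham laparotomy with no infusion, so that CON was not free of surgery. Each rat gave 1 library, the sample labels name no batch, and the study fasted the rats after the operation.

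Many licensing genes are known targets of the E2F transcription factors, so the promoter windows of the members were read for E2F-type motifs. RefSeq windows of the GRCr8 build, from 250 bases before to 50 bases after the gene start, were given for 7 of the 10 genes, namely Mcm2, Mcm3, Mcm5, Mcm6, Mcm7, Cdt1 and Gins2. Searched on both strands were TTTCCCGC, TTTCGCGC, TTTGCCGC and TTTGGCGC. A match to 1 or more of them was found in 6 of the 7 windows (85.7%), the exception being Gins2. Over all 33469 windows in the table, 716 held a match (2.14%). Matches on opposite strands can overlap, since the letters of one strand can complete the motif on the other, as in Mcm2, Mcm5 and Mcm6. The stretches that hold the matches are shown 5′ to 3′ on the gene strand, with every match in capitals and with at most 30 bases after the gene start, because they are what most of the 7 windows share.
Mcm2, chr4:122918072-122918133, minus strand: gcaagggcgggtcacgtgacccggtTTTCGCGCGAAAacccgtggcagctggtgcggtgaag
Mcm3, chr9:30733717-30733777, minus strand: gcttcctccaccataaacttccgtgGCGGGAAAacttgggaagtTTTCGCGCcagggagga
Mcm5, chr19:13488575-13488837, plus strand: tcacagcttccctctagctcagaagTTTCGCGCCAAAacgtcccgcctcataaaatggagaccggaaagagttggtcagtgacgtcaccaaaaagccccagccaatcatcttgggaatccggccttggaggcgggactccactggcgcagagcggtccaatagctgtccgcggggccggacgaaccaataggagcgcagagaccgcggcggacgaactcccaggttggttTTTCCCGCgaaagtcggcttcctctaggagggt
Mcm6, chr13:42404455-42404516, minus strand: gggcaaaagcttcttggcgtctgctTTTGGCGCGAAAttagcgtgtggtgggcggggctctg
Mcm7, chr12:22163198-22163428, minus strand: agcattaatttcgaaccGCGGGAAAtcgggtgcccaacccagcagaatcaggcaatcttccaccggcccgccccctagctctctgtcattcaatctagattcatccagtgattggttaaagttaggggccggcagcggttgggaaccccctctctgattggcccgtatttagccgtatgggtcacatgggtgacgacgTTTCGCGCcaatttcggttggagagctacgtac
Cdt1, chr19:67529231-67529278, plus strand: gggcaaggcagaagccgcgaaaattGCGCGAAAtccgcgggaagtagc
In Cdt1 a second match begins 32 bases after the start and is left out of the stretch. In Mcm2, Mcm3, Mcm5 and Cdt1 at least 1 match lay at the gene start or close to it, whereas the matches of Mcm6 began at positions -139 and -135 from it. Of the other replication genes with a window, 16 of 35 on a list of replication fork and S phase genes (45.7%) and 4 of 12 on a list of helicase activation genes (33.3%) held a match, against 1 of 20 on a list of mitosis genes (5.00%). A match describes the letters of the window and does not show that a factor binds there, and the windows were not measured in these libraries.

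**Figure D1:**
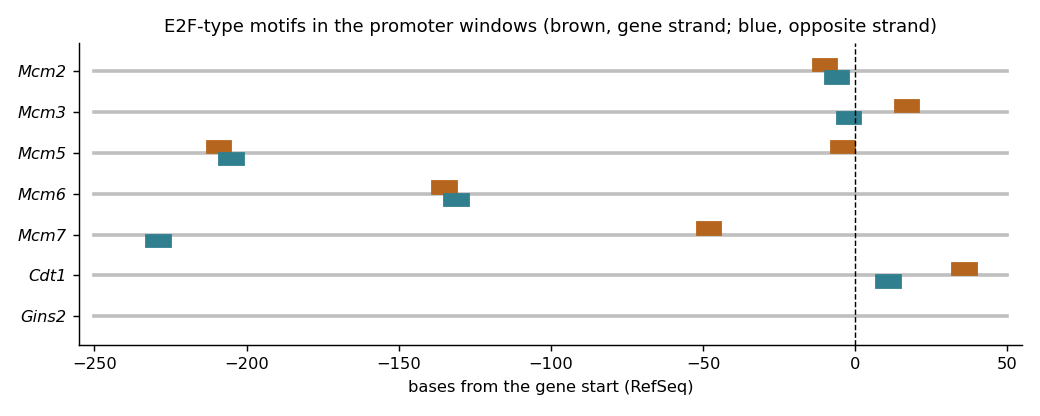
Positions of E2F-type motifs in the 7 promoter windows, in bases from the RefSeq gene start, with matches on the gene strand above each line and matches on the opposite strand below it. Matches of Mcm2, Mcm3, Mcm5 and Cdt1 sit at or near the start, those of Mcm6 begin at -139 and -135, and Gins2 has none.

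In the 6 libraries, 40970 of 90461 barcodes passed the study's limits of 1200 UMIs (unique molecular identifiers, 1 per captured transcript), 500 genes and 5% mitochondrial UMIs. The study reported fewer high-quality nuclei under these limits, so the set used here is not the same as the study's. Passing nuclei numbered from 6260 to 9246 per CON library and from 3189 to 7893 per SAP library. Their UMIs summed to between 5549260 and 28771508 per library. The lowest UMI count of any barcode was 545 in CON replicate 2 and 502 in SAP replicate 1, against 1000 in each of the others. In these libraries 26.2% and 12.2% of barcodes passed, against 76.4% to 79.9% in the others. Fits with this difference as a covariate were among the alternatives. SAP replicates 1 and 2 stood apart in their median mitochondrial share, 1.84% and 1.29%, against 0.387% in SAP replicate 3 and between 0.125% and 0.700% in CON. A total of 5398 barcode names were shared by libraries, and no pair of such nuclei had equal UMI and gene totals. The classes of nuclei named below come from clustering on genes other than the members, and each name rests on a list of marker genes. The other replication genes and the alpha-defensin, Reg3, RT1 and mitochondrial genes were left out of the clustering too. Genes of the mitosis list were not left out, and all TA markers are on that list. The stem/TA-like class was thus drawn in part on the mitosis genes it is later compared with. Markers of ileal epithelium were present, with Apoa4 leading the enterocyte-like cluster, Muc2 among the first genes of the goblet-like cluster and alpha-defensins leading the Paneth-like cluster. In RefSeq the span of Gins2 overlaps that of Gse1 and that of Mcm7 holds 3 microRNA genes. The span of Mcm3 overlaps that of Cct7-ps4 and the span of Mcm6 that of Trnas-aga41. In each case UMIs from shared bases could count for either gene.

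Over all passing nuclei the members gave 19734 UMIs. Their summed level, scaled to 1000000 UMIs per library (CPM), was 205, 267 and 198 CPM in CON replicates 1 to 3 and 171, 77.2 and 245 CPM in SAP replicates 1 to 3. The means were 223 ± 38.2 CPM in CON and 164 ± 84.0 CPM in SAP (SD, n = 3 each). SAP replicate 2 lay far below every other library, SAP replicate 1 below the CON libraries, and SAP replicate 3 within their range. In a bulk sum of this kind, fewer cells of a type and less RNA per cell cannot be told apart.

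Among the helicase subunits, Mcm7 reached 35.2, 43.8 and 34.9 CPM in CON and 31.2, 8.65 and 37.7 CPM in SAP. Mcm5 reached 27.5, 29.0 and 23.5 CPM in CON and 16.8, 6.00 and 31.7 CPM in SAP. For Mcm4 the CON libraries gave 14.7, 18.0 and 16.9 CPM, and the SAP libraries gave 11.5, 3.55 and 17.5 CPM. In all of these SAP replicate 2 held the lowest value, and SAP replicate 3 reached the CON range. Mcm2 was at 12.7, 12.8 and 11.9 CPM in CON and at 10.1, 4.58 and 13.8 CPM in SAP. Mcm3 was at 21.0, 23.1 and 21.5 CPM in CON and at 16.4, 7.81 and 29.0 CPM in SAP. The values for Mcm6 were 29.0, 26.7 and 23.3 CPM in CON and 26.5, 11.0 and 31.7 CPM in SAP. For Mcm2, Mcm3, Mcm5 and Mcm6 the highest library of all was SAP replicate 3 and the lowest was SAP replicate 2, so that SAP enclosed CON.

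Among the loading factors, Orc1 was at 9.66, 15.7 and 11.2 CPM in CON and at 4.51, 1.81 and 14.4 CPM in SAP. Cdt1 was at 22.8, 38.6 and 23.3 CPM in CON and at 16.0, 10.1 and 31.4 CPM in SAP. Cdc6, the ATPase that works with the origin recognition complex to close the MCM ring on DNA, was at 15.1, 30.4 and 14.4 CPM in CON and at 22.7, 14.3 and 19.1 CPM in SAP. The SAP libraries lay closer together for Cdc6 than for Orc1 or Cdt1, and SAP replicate 2 differed little from CON replicates 1 and 3. Gins2 was at 17.1, 28.9 and 16.9 CPM in CON and at 15.3, 9.30 and 18.4 CPM in SAP. CON replicate 2 held the highest value of the 6 libraries for Cdc6, Cdt1, Orc1 and Gins2.

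**Figure D2:**
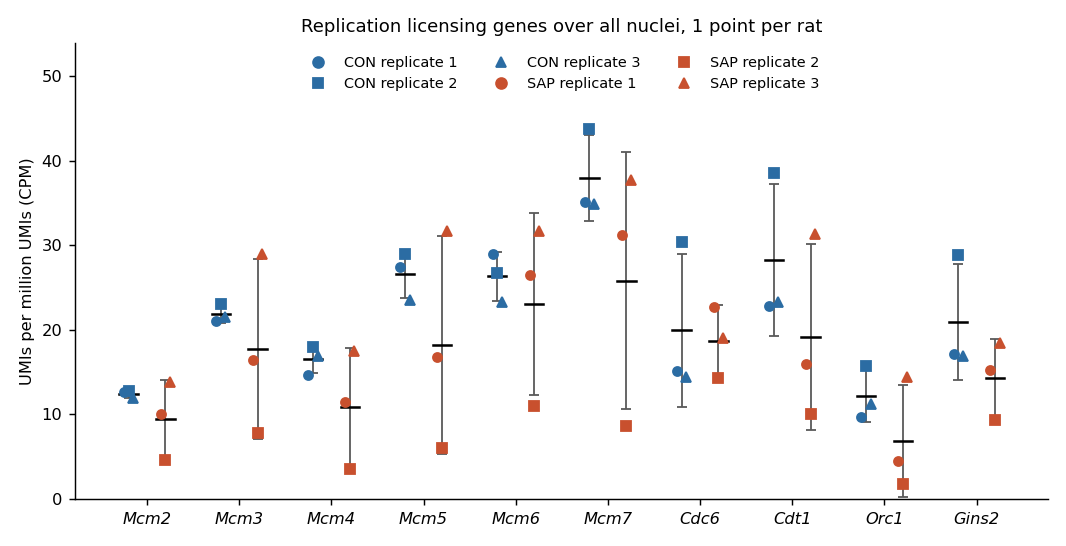
Level of each licensing gene over all passing nuclei, in UMIs per 1000000 UMIs (CPM), with 1 point per rat, a black bar at the group mean and whiskers of 1 SD (n = 3). SAP replicate 2 is lowest for every gene, from 1.81 CPM (Orc1) to 14.3 CPM (Cdc6), and SAP replicate 3 lies among or above the CON libraries.

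Sums per library were compared between SAP and CON with the quasi-likelihood test of edgeR, with adjusted p-values over all genes tested. All 10 log2 fold changes over all nuclei were below 0, with a median of -0.61. Of all 19187 genes tested, 47.8% were below 0 and the median was 0.02. A gene was called where the adjusted p was under 0.05 and the log2 fold change was at least 0.5 in size. None of the 10 members was called, at a background of 0% in either direction. None had an unadjusted p under 0.05, where the background was 4.47% lower and 3.97% higher, while DESeq2 called 0 members as well, at a background of 0.295% called lower and 0.391% called higher. The lowest log2 fold change was that of Orc1, -0.98 ± 0.58 (SE, edgeR adjusted p = 0.706), which was -0.53 without SAP replicate 2 and -1.81 without SAP replicate 3 (adjusted p = 0.994 and 0.214). Mcm4 and Mcm5 both stood at -0.70 ± 0.48 (adjusted p = 0.749 and 0.752), and Cdt1 at -0.66 ± 0.39 (adjusted p = 0.701). Without SAP replicate 2 these 3 genes were at -0.30, -0.30 and -0.39. Cdc6 was closest to 0, at -0.09 ± 0.41 (adjusted p = 0.975). After TMM normalization the SAP libraries lay below the CON libraries without overlap for 1 of 10 members, Mcm4, against 9.06% of all genes, whereas on library totals the groups overlapped for Mcm4. Leaving out SAP replicate 2 brought the median of the members to -0.27, and leaving out SAP replicate 3 brought it to -0.73. Restricted to epithelial nuclei, the 10 log2 fold changes ran from -1.09 (Orc1) to -0.13 (Cdc6) with a median of -0.66, where 50.2% of all genes lay below 0. By edgeR 0 of 10 were called there, at a background of 0%, and 0 had an unadjusted p under 0.05, at a background of 5.96% lower and 5.08% higher. DESeq2 called 0 of 10 there too, at a background of 0.410% called lower and 0.571% called higher.

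Where the members were found was read from 17 classes with at least 10 nuclei in every library. Stem/TA-like nuclei, a cluster led by Olfm4 with raised stem and mitotic markers, held 22.4% of the members' UMIs in 5534 of 40970 nuclei. Their summed level was 387 ± 76.2 CPM (SD over 6 libraries) and the highest of the classes. B-like nuclei followed at 343 ± 131 CPM, then the unnamed cluster 0 at 229 ± 101 CPM, Paneth-like nuclei at 223 ± 117 CPM, tuft-like nuclei and T-like nuclei. At the other end stood the unnamed cluster 2, whose best-scoring class was enterocyte, at 89.2 CPM, and enterocyte-like nuclei at 87.1 ± 33.8 CPM. No neighbours in this order had ranges that lay apart, and stem/TA-like nuclei exceeded B-like nuclei in 4 of 6 libraries. Against enterocyte-like nuclei they were higher in 6 of 6 libraries, by 5.14-fold over the pooled UMIs, and against smooth muscle (SMC)-like nuclei by 2.68-fold, again in 6 of 6. Since the clustering used the same nuclei, these contrasts are descriptions without a test.

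**Figure D3:**
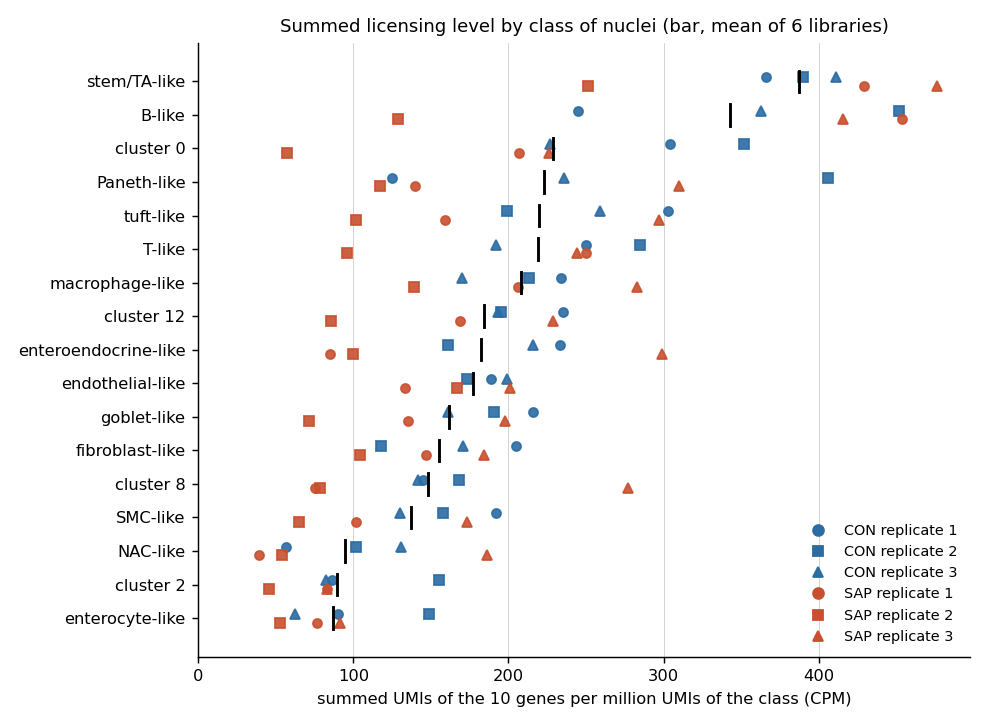
Summed level of the 10 licensing genes in each class of nuclei, in UMIs per 1000000 UMIs of that class (CPM), with 1 point per library and a black bar at the mean of the 6 libraries. Stem/TA-like nuclei (mean 387 CPM) and B-like nuclei (343 CPM) lead, enterocyte-like nuclei are lowest (87.1 CPM), and SAP replicate 2 lies low in most classes.

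Single members followed the same order between stem/TA-like and enterocyte-like nuclei with different ratios. Mcm7 averaged 70.7 CPM in stem/TA-like and 10.7 CPM in enterocyte-like nuclei, an 8.27-fold ratio of pooled UMIs. Cdt1 averaged 50.8 and 8.69 CPM (6.57-fold), and Orc1 20.3 and 4.39 CPM (5.95-fold). For Cdc6 the ratio was 3.26-fold and for Gins2 it was 2.84-fold, the lowest of the 10. All 10 were higher in stem/TA-like nuclei in 6 of 6 libraries. After the thinning described below, 9.60% of enterocyte-like nuclei held a member UMI, against 14.0% of SMC-like nuclei, taken as background. The enterocyte-like levels are therefore not read as expression, and the order of the genes by ratio depends on the class compared. Against SMC-like nuclei the ratio of pooled UMIs was 2.60-fold for Mcm7, 3.14-fold for Cdt1 and 4.04-fold for Orc1. It was 3.07-fold for Cdc6 and 1.86-fold for Gins2. Against B-like nuclei the ratio of pooled UMIs lay between 0.684 (Mcm3) and 1.71 (Mcm7), and Mcm7 was the 1 member higher in stem/TA-like nuclei in 6 of 6 libraries. B-like nuclei were few in 4 libraries, from 29 to 99 nuclei, and 843 of the 1323 came from SAP replicate 3.

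UMIs of the members outside dividing cells could also be free RNA captured in droplets. After each nucleus was thinned to 1200 UMIs, the share of nuclei with at least 1 member UMI was 33.2%, 32.9% and 35.6% in the stem/TA-like nuclei of CON and 33.6%, 24.3% and 38.6% in those of SAP. For SMC-like nuclei, which should not cycle, the CON libraries gave 17.8%, 14.2% and 13.1%, and the SAP libraries gave 13.8%, 9.09% and 15.9%. Stem/TA-like nuclei were above SMC-like nuclei in every library, with median depths of 1759 and 1779 UMIs before thinning. The SMC-like share, 14.0% on average over the 6 libraries, was taken as the background of the assay. Enterocyte-like nuclei (9.60%), cluster 2 (9.55%) and neuron-associated (NAC)-like nuclei (12.7%) lay at or below it and are not read as expressing the members. The SMC-like share is thus a chosen limit and not the lowest level seen in these libraries. At 3 or more member UMIs per thinned nucleus the share was 2.76% in stem/TA-like, 2.87% in B-like and 0.474% in SMC-like nuclei. Before thinning, 47.0% of CON and 40.9% of SAP stem/TA-like nuclei held a member UMI, and 28.1% and 22.4% of SMC-like nuclei.

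Within stem/TA-like nuclei the direction of the members depended on how the class was drawn. Their summed level was 366, 390 and 411 CPM in CON and 429, 251 and 476 CPM in SAP, with means of 389 ± 22.5 and 385 ± 118 CPM (SD, n = 3 each). SAP replicates 1 and 3 lay above every CON library and SAP replicate 2 below every one. By edgeR 5 members were below 0 and 5 above, with a median log2 fold change of 0.01, where 48.4% of all genes were below 0. None was called by edgeR, at a background of 0.00843% lower and 0% higher, or by DESeq2, at 0.122% lower and 0.206% higher. None had an unadjusted p under 0.05, against 3.40% lower and 4.21% higher over all genes. Cdc6 had the highest value, 0.53 ± 0.35 (SE, edgeR adjusted p = 0.757), from 27.4, 41.8 and 29.9 CPM in CON and 68.2, 38.8 and 33.7 CPM in SAP. Mcm5 stood at 0.30 ± 0.36 (adjusted p = 0.857), with 45.7, 39.2 and 43.7 CPM in CON and 61.3, 21.9 and 71.9 CPM in SAP. For both genes the groups overlapped. Cdc6 rested on SAP replicate 1, without which it was 0.06, and it was -0.12 without integration of the libraries. At a mitochondrial limit of 1% Cdc6 was 0.02. Over all classes that limit kept 384 of the 3189 nuclei of SAP replicate 1, so it is no separate check. Mcm5 was 0.08 without SAP replicate 1, 0.04 without SAP replicate 3 and 0.59 without SAP replicate 2. Gins2 stood at -0.32 ± 0.31 (adjusted p = 0.828) and Mcm7 at -0.28 ± 0.28 (adjusted p = 0.836), while Mcm2, Mcm3 and Mcm6 were within 0.08 of 0. With cluster 0 included the median was -0.45, at a clustering resolution of 0.4, where the class held 13551 nuclei, it was -0.44, and with the mitosis genes left out of the clustering it was -0.26. Under each of these 3 borders 9 of 10 members were below 0, the exception being Cdc6. Stem/TA-like nuclei made up 19.0%, 19.8% and 12.6% of the nuclei of CON and 13.4%, 5.73% and 8.92% of those of SAP.

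Cluster 0, with 7183 nuclei, was unnamed since its best score, that of TA markers, was under the limit for a name. All 10 members were below 0 there, with a median of -0.84, where 48.6% of the 11942 genes tested in that cluster were below 0. By edgeR 0 of 10 were called, at a background of 0%, and 3 had an unadjusted p under 0.05, all lower, where the background was 5.74% lower and 7.49% higher. These were Mcm4 (-1.31 ± 0.51, adjusted p = 0.361), Mcm5 (-1.36 ± 0.56, adjusted p = 0.368) and Orc1 (-1.34 ± 0.56, adjusted p = 0.371). Mcm4 was at 24.1, 25.4 and 17.8 CPM in the CON libraries and at 8.01, 2.87 and 15.6 CPM in the SAP libraries of cluster 0. Orc1 was at 17.8, 18.3 and 14.7 CPM in CON and at 5.34, 1.72 and 12.2 CPM in SAP. The groups did not overlap for either gene. After TMM normalization 4 of 10 members lay lower in SAP without overlap, namely Mcm4, Mcm5, Orc1 and Cdt1, against 11.1% of all genes. On library totals the groups overlapped for Mcm5 and Cdt1. SAP replicate 3 was at 28.4 and 28.9 CPM for these genes, against 27.8 and 28.2 CPM in CON replicate 3. Mcm3 lay lower without overlap on library totals, but overlapped after TMM normalization. After thinning, 28.5%, 28.9% and 19.7% of cluster 0 nuclei in CON and 17.5%, 5.82% and 19.9% in SAP held a member UMI. The share in SAP replicate 2 was below that of its SMC-like nuclei, 9.09%, so its cluster 0 levels are not read as expression. The share of cluster 0 nuclei with at least 1 mitotic UMI after thinning moved the same way, with 74.9%, 79.3% and 57.4% in CON and 30.4%, 11.2% and 58.3% in SAP. Fits of cluster 0 without single libraries were not run. Whether the SAP effect differed between cluster 0 and stem/TA-like nuclei was not tested.

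**Figure D4:**
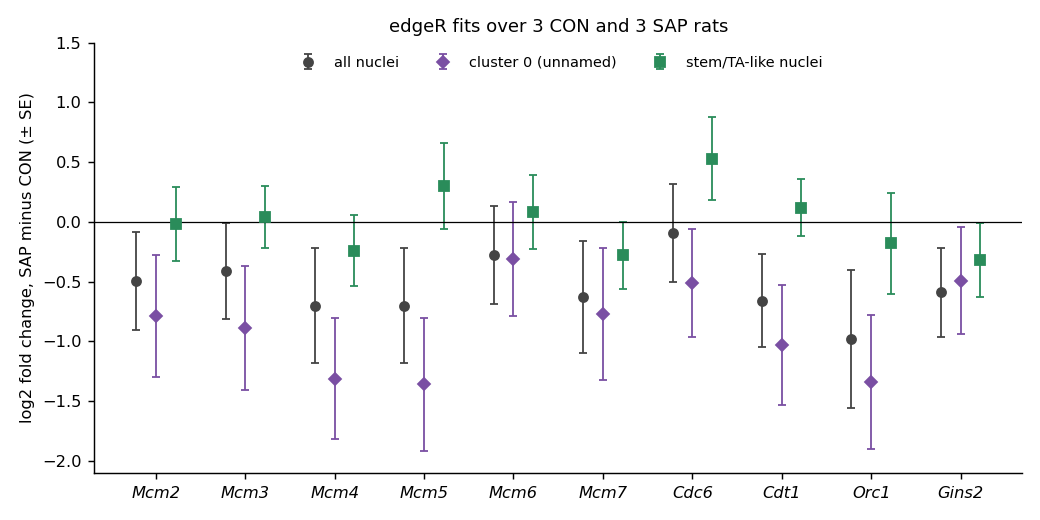
Log2 fold change of each licensing gene, SAP minus CON, from edgeR fits over 3 CON and 3 SAP rats, with bars of 1 SE, for all nuclei (grey circles), the unnamed cluster 0 (purple diamonds) and stem/TA-like nuclei (green squares). Values for all nuclei and cluster 0 lie below 0 for the 10 genes, those for stem/TA-like nuclei lie on both sides, and no gene was called.

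At least 1 member could be tested in 13 of the classes, stem/TA-like nuclei and cluster 0 included, which gave 87 tests of a member in a class. None of them was called, at a background of 0.00947% called lower and 0% called higher over the same classes. Of these 87 log2 fold changes 76 were below 0 and 11 above, where 49.1% of all genes were below 0. The counts include enterocyte-like nuclei (7 of 8 below 0) and cluster 2 (9 of 9), which are not read as expressing the members. They also include SMC-like nuclei (2 of 2), which were taken as the background of the assay. An unadjusted p under 0.05 was reached in 3, those named for cluster 0, against a background of 3.92% lower and 4.48% higher. Among goblet-like nuclei 10 of 10 members were below 0 with a median of -0.38, among Paneth-like nuclei 8 of 8 with a median of -0.39, and among T-like nuclei 9 of 10 with a median of -0.45. The exception in T-like nuclei was Cdc6, at 0.42 ± 0.57 (edgeR adjusted p = 0.922), with no call. After thinning, 15.8 ± 4.81% of goblet-like nuclei held a member UMI, near the 14.0 ± 2.94% of SMC-like nuclei (SD over 6 libraries). The summed level averaged 189 CPM in CON and 135 CPM in SAP in goblet-like nuclei, against 160 and 113 CPM in SMC-like nuclei. Whether the goblet-like difference exceeded that of the background was not tested. Enterocyte-like nuclei, whose share with a member UMI was at or below the background of the assay, are not read for single members. In T-like nuclei the summed level was 250, 285 and 192 CPM in CON and 250, 96.1 and 244 CPM in SAP. Paneth-like nuclei gave 125, 406 and 236 CPM in CON and 140, 117 and 310 CPM in SAP. SAP replicate 2 was the lowest library in T-like, Paneth-like and goblet-like nuclei. SAP replicate 3 lay within the CON range in each of them. Fits of these classes without single libraries were not run. The classes share their 6 rats, so they are not independent.

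To see how the difference over all nuclei compared with the mix of classes, the summed level was also computed with each class weighted by its mean share of UMIs in CON. At that fixed mix the levels were 218, 266 and 209 CPM in CON and 192, 104 and 251 CPM in SAP. The difference between the group means was -21.0%, against -26.3% as measured, and -22.6% with the mix of SAP. SAP replicate 2 remained the lowest library and SAP replicate 3 stayed within the CON range. The log2 ratio of the group means at the fixed mix was -0.34. With 1 library left out at a time, it ran from -0.64 to -0.06. Without integration of the libraries in the clustering, the log2 ratio of the group means at the fixed mix was 0.08 in place of -0.34.

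Of 80 other replication genes on 5 lists, 74 were below 0 over all nuclei, with a median log2 fold change of -0.65. By edgeR or DESeq2 0 of them were called, at a background of 0% and 0.295% called lower, and 18 had an unadjusted edgeR p under 0.05, all lower, at a background of 4.47%. The 12 helicase activation genes, which act after licensing, all lay below 0 with a median of -0.89. Ticrr, which helps load Cdc45, stood at -1.47 ± 0.49 (adjusted p = 0.545), and Dbf4, the activator of the Cdc7 kinase, at -1.17 ± 0.48 (adjusted p = 0.577). The 8 genes of other origin recognition and MCM proteins had a median of -0.48, with Mcm8 at -0.87 and Orc6 at -0.84 as the lowest. On the list of factors that restrain licensing, 7 of 8 lay below 0, with Dtl at -0.96 and Skp2 at -0.93. On the E2F and RB list 14 of 17 did, with Ccna2 at -1.35 and E2f8 at -1.05. On the fork and S phase list 33 of 35 did, with Tyms, which makes thymidylate, at -1.39 and Timeless at -1.16. The members' median of -0.61 was thus close to that of the other replication genes.

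The 22 genes of the mitosis list lay lower, with 22 of 22 below 0 and a median of -1.41. Of them 0 were called by edgeR and 2 by DESeq2, at backgrounds of 0% and 0.295% called lower, with 19 at an unadjusted edgeR p under 0.05, all lower, at a background of 4.47%. Pttg1 (-1.92) and Cenpf (-1.81) were the lowest. Their summed level was 1338, 1843 and 1098 CPM in CON and 456, 206 and 1110 CPM in SAP. Set against these mitotic UMIs, the members stood at 15.3, 14.5 and 18.0 UMIs per 100 mitotic UMIs in CON and at 37.5, 37.5 and 22.1 in SAP. Every SAP library lay above every CON library, SAP replicate 3 by the smallest margin. By single gene, 9 of 10 members were higher in SAP without overlap on this scale, Orc1 being the exception, but so were 41.9% of the 15602 genes with at least 200 UMIs. In stem/TA-like nuclei the values were 13.9, 11.6 and 15.5 in CON and 34.1, 31.0 and 18.2 in SAP, with 6 of 10 members apart at a background of 40.9%. In SMC-like nuclei they were 16.7, 12.9 and 21.2 in CON and 32.7, 35.9 and 27.9 in SAP, above those of stem/TA-like nuclei in 5 of 6 libraries. The mitotic level of SMC-like nuclei was 1149, 1225 and 615 CPM in CON and 312, 181 and 619 CPM in SAP, and the part of free RNA, doublets or dividing nuclei in these values was not tested.

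**Figure D5:**
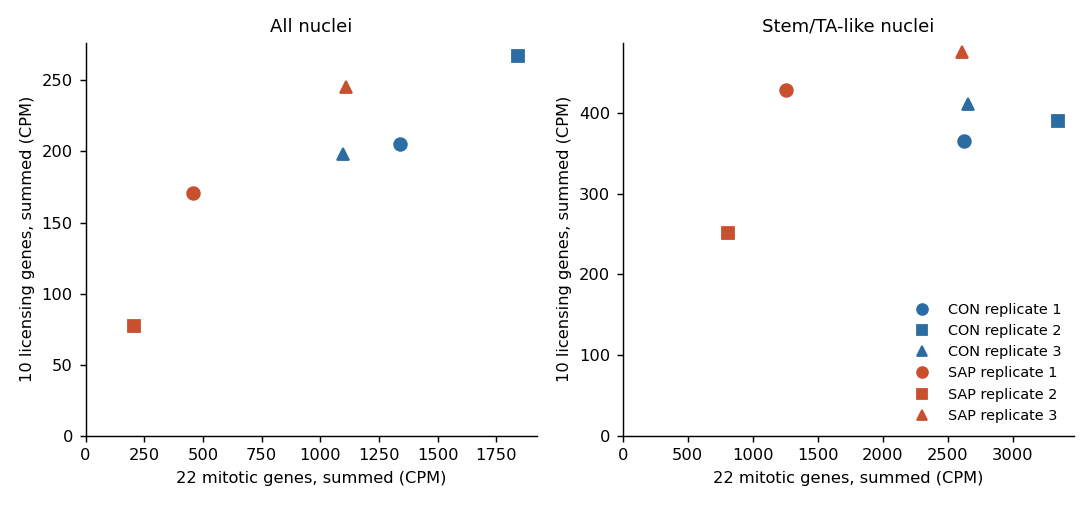
Summed level of the 10 licensing genes against that of the 22 mitosis genes, both in CPM, over all nuclei (left) and in stem/TA-like nuclei (right), with 1 point per library. SAP replicates 1 and 2 lie far to the left at 456 and 206 mitotic CPM over all nuclei, with 171 and 77.2 licensing CPM, whereas SAP replicate 3 lies near the CON libraries.

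Licensing precedes mitosis in the cycle, so the members were also compared between stem/TA-like nuclei with and without a mitotic UMI. Of the stem/TA-like nuclei, 89.8%, 95.1% and 85.6% held at least 1 mitotic UMI in CON and 64.8%, 42.7% and 87.8% in SAP. A mitotic UMI is no call of a cell cycle phase, since after thinning 58.9%, 61.5% and 37.2% of SMC-like nuclei of CON and 29.8%, 18.2% and 36.6% of those of SAP held one. The log2 difference in CPM, with 10 CPM added to both levels, which makes each difference smaller, was averaged over the 6 libraries. By this measure 9 of 10 members were lower in nuclei with a mitotic UMI, from -0.74 (Mcm3) to -0.10 (Cdc6). Mcm5 was at 0.11 ± 0.73 (SD, n = 6), and the median was -0.31. The direction was not shared by every library. In SAP replicate 2 the summed level was 300 CPM with a mitotic UMI and 211 CPM without one. SAP replicate 1 differed little, with 419 and 447 CPM. An edgeR fit with the library as a block was an alternative added after the data were seen. There the 10 members ran from -0.95 (Orc1) to -0.13 (Cdc6), with a median of -0.52, where the median of all genes was -0.01. Of the 10, 1 was called, Mcm3 at -0.88 ± 0.22 (adjusted p = 0.00497), where 0.662% of 8314 genes were called lower and 2.77% higher. Genes called higher include the mitosis list, which defined the split, so their call was fixed in advance. Mcm3 was at 35.1, 30.1, 38.4, 31.8, 18.5 and 39.5 CPM with a mitotic UMI and at 53.3, 84.7, 52.0, 48.8, 34.1 and 104 CPM without one, in CON replicates 1 to 3 and then SAP replicates 1 to 3. Mcm3 was lower in 6 of 6 libraries, where a two-sided exact sign-flip permutation test gave the smallest p that 6 pairs allow. That p was not adjusted over the 10 members, and no other member had a p under 0.05 in this test. The permutation test and the edgeR fit used the same nuclei, so the permutation test is no independent check of the call. Orc1 stood at -0.95 ± 0.31 (edgeR adjusted p = 0.0636), Mcm7 at -0.50 ± 0.17 (adjusted p = 0.0679) and Mcm6 at -0.59 ± 0.21 (adjusted p = 0.106), none of which passed. Orc1 was lower in 4 of 6 libraries, with 74.1 CPM in CON replicate 2 and 71.8 CPM in SAP replicate 3 among nuclei without a mitotic UMI. Nuclei without one were few, from 61 to 196 per library, and shallower, with medians from 1482 to 1588 UMIs against 1526 to 2012 UMIs. The part of depth was not tested beyond thinning to 1200 UMIs, after which the median of the mean log2 differences was -0.26.

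The genes whose level over the 17 classes was most like that of the summed members were Lmnb1 (Pearson's r = 0.969), which encodes lamin B1, Dut (0.957), Cenpf (0.957), Prim1 (0.954) and Lbr (0.952), out of 18298 genes compared. Dut makes the enzyme that keeps uracil out of DNA, Prim1 is the catalytic subunit of primase, Cenpf is a centromere protein of the mitosis list, and Lbr is the lamin B receptor. Among the members, r with the sum of all 10 ran from 0.690 (Orc1) to 0.962 (Cdt1). These correlations are across classes that share libraries, depth and free RNA, and are given as a description.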

How the data were processed

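UMIs per gene and nucleus were measured in 6 libraries, and the authors deposited raw UMI counts per barcode from dnbc4tools, not normalized, per the paper's methods. The submitters' processing notes name mRatBN 7.2 and Seurat 4.3.0. Here nuclei passing the study's limits were clustered (scanpy 1.11.5; 2000 variable genes without the members; Harmony re-implemented; Leiden, resolution 0.8). Clusters were named where a class's markers had a mean log2 ratio of at least 0.5 and led by 0.8. Where stem and TA, or endothelial and lymphatic, came first together, the lead was taken over the class after them. The stem/TA-like cluster was named in this way, with scores of 1.48 (stem) and 1.30 (TA). A cluster led by both T and B markers was clustered again by itself. UMIs were summed per library and fitted with edgeR 4.0.16 (filterByExpr, TMM) under R 4.3.3, with DESeq2 1.42.0 as an alternative. Doublets were kept, since the automatic threshold of Scrublet marked 0 of 40970 nuclei, which does not show that none were present. An alternative run left out the 5% of each library with the highest doublet scores, 2048 nuclei in all. Levels are scaled by library totals and fold changes by TMM. The members and lists were chosen with earlier results of these data known. Named genes are the members, up to 2 genes per list with the largest absolute fold change over all nuclei, and the 5 most like the members over classes. No p is given for sums or shares over the members. Over all nuclei, deviations from group means correlated by 0.577, 0.183 and 0.524 between libraries of equal number. Over epithelial nuclei the lowest such correlation was 0.0549. The labels state no pairing. The fold changes between SAP and CON given above came from fits on group alone. A fit with the replicate number as a block was run as an alternative. Libraries of 1 group differed by a chi-square per degree of freedom of 41.6 or more.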

Additional observations from a re-analysis of the deposited data

How the results depend on the processing

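Over all nuclei, epithelial nuclei and stem/TA-like nuclei 0 members were called under every alternative run. The main edgeR fits called 0%, 0% and 0.00843% of all genes lower there and 0% higher, so this count says little about the members. With the replicate block the median log2 fold change was -0.63 over all nuclei, -0.72 over epithelial and -0.02 over stem/TA-like nuclei, and the pairing changed no call. Leaving out 1 library at a time gave medians from -0.82 to -0.27, from -0.89 to -0.30 and from -0.11 to 0.10. DESeq2 moved the median of all genes by more than 0.1, to 0.12, 0.14 and 0.17, as did no filter over epithelial nuclei (0.14). At resolution 0.4 and with cluster 0 included (added after the data were seen), the stem/TA-like median was -0.44 and -0.45, the level 292 and 298 CPM, and the difference in the share of nuclei with a member UMI -8.47 and -8.37 percentage points in place of -1.71, against 6.10 without integration.

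Signs of single genes turned under some settings. Leaving out 1 library gave -0.37 to 0.26 for Cdc6 and -0.53 to 0.03 for Mcm6 over all nuclei, and -0.42 to 0.24 and -0.57 to 0.02 over epithelial nuclei. In stem/TA-like nuclei it gave -0.17 to 0.12 for Mcm2, -0.09 to 0.16 for Mcm3, -0.19 to 0.29 for Mcm6, -0.08 to 0.20 for Cdt1 and -0.97 to 0.03 for Orc1. There, resolution 0.4 gave -0.43 (Mcm3), -0.46 (Mcm5), -0.20 (Mcm6) and -0.47 (Cdt1), and cluster 0 included gave -0.44, -0.39, -0.15 and -0.45 for the same genes. Leaving the mitosis genes out of clustering gave -0.22, -0.11, -0.05 and -0.19. No integration gave 0.04 (Mcm7), -0.12 (Cdc6) and 0.20 (Orc1), the 1% mitochondrial limit 0.13 (Mcm2), -0.15 (Mcm6) and 0.14 (Orc1), and no filter -0.05 (Mcm3) and -0.01 (Mcm6). For nuclei with a mitotic UMI, thinning gave 0.28 (Mcm4) and -0.13 (Mcm5), and leaving out 1 library gave -0.13 to 0.27 for Mcm5 and -0.81 to -0.64 for Mcm3, where 5 pairs cannot pass the exact test. The cause of these changes was not tested. Member levels under 50 CPM in single classes limit what these libraries can show.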

Other observations

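In stem/TA-like nuclei, 10 of 64 other replication genes were called between nuclei with and without a mitotic UMI (edgeR adjusted p under 0.05 and a log2 difference of at least 0.5 in size), 5 lower and 5 higher, at a background of 0.662% of all genes called lower and 2.77% called higher. The share called higher includes the genes of the mitosis list, which defined the split. The 10 replication genes named here were chosen after their values were seen. Lower in nuclei with a mitotic UMI were Dtl (-0.91, adjusted p = 0.00187), a subunit of the ubiquitin ligase that degrades Cdt1, Ung (-0.88), Rpa1 (-0.72), Tfdp1 (-0.63), the partner of the E2F factors, and Timeless (-0.50). Higher were E2f7 (1.76), a repressor of the E2F family, Dbf4 (1.56), Ticrr (1.11), Clspn (0.90) and Fzr1 (0.86), which activates the anaphase-promoting complex. These are log2 differences within the same 6 libraries.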
